A study of Mus musculus with 9 samples.

Results

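The gene set described here holds 32 mouse genes of the hypoxia response and of glycolysis, measured in 9 oral tumors on Affymetrix expression arrays. The list of symbols was chosen with earlier results of these data known. Of these 32 genes, 29 were tested, out of 12167 genes tested in all. They were the alpha subunit genes Hif1a and Epas1, 11 of 14 listed genes of glucose uptake and glycolysis, 3 regulators of glycolytic flux, 2 lactate transporters and 11 other targets of hypoxia-inducible factor (HIF). The series covers tumors that arose with activated Ras and altered p53. By genotype there were 3 groups of 3 tumors each: p53R172H/- tumors had 1 copy of the missense allele p53R172H and 1 null allele, p53R172H/+ tumors had the missense allele beside a wild-type allele, and p53-/- tumors had no p53. All mice were 1 year old, and by the series' title Ras activation was shared by every group, p53-/- tumors included. The labels put the prefix K- before each genotype without explaining it, and the driver of the Ras allele, any Cre line and the number of animals behind the tumors are not stated in the labels used here. Since separate animals are not named for the tumors of 1 group, the p-values cover only the spread among these tumors.

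HIF is a transcription factor made of an oxygen-regulated alpha subunit and a stable beta subunit. In oxygenated cells prolyl hydroxylases of the Egln family mark the alpha subunits for destruction through the Vhl protein, so that HIF activity is set mostly by protein stability, which arrays do not measure. When oxygen is short HIF raises the transcription of glucose transporters, glycolytic enzymes, lactate exporters and angiogenic factors, and many squamous tumors also run glycolysis at a high rate when oxygen is present.

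The tissue label was checked first. Of 12 stratified epithelium markers 11 were measured, and their mean log2 signal was 12.96 to 13.13 in p53R172H/-, 12.98 to 13.12 in p53R172H/+ and 12.90 to 13.08 in p53-/- tumors. Tumors differed in skeletal muscle and red blood cell signal. The mean log2 signal of the 15 muscle markers was 6.59, 10.86 and 9.79 in p53R172H/- tumors 1, 2 and 3, against 6.35 to 8.47 in p53R172H/+ and 7.70 to 8.39 in p53-/- tumors. The 1 measured red blood cell marker of 5 was at 6.17, 11.3 and 7.35 in p53R172H/- tumors 1, 2 and 3, against 6.87 to 7.35 in p53R172H/+ and 5.72 to 6.67 in p53-/- tumors. Tumors are mixtures, and in such bulk samples fewer cells of a type and less RNA per cell cannot be told apart. With limma 0 of the genes tested reached an adjusted p under 0.05 in each of 4 comparisons, and 1897, 1259, 603 and 1938 genes had an unadjusted p under 0.05 for p53R172H/- against p53-/-, p53R172H/+ against p53-/-, p53R172H/- against p53R172H/+ and both p53R172H groups against p53-/-. Differences below are therefore given as values.

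Both p53R172H groups had higher average signals than the p53-/- tumors for most members. Against p53-/-, 23 of 29 members were higher on average in p53R172H/- tumors and 23 of 29 in p53R172H/+ tumors, where 43.8% and 43.9% of all genes tested were higher. The median log2 fold change of the 29 members was 0.16 for p53R172H/- and 0.18 for p53R172H/+, beside -0.03 for all genes tested in each. Both comparisons use the same 3 p53-/- tumors. Because the members were chosen with earlier results of these data known, counts beside all genes are a description and not a test. When every array was shifted to the same median, 24 and 25 members were higher, and so were 56.2% and 58.2% of all genes tested.

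Taking the p53R172H groups together, all 6 of their tumors lay above all 3 p53-/- tumors for 5 of 29 members (17.2%), against a background of 3.34% of all genes tested. These were Hif1a, Vegfa, Adm, Tpi1 and Ldha, each on its brightest probe set. For both groups together, other probe sets gave log2 fold changes of -0.04 for Adm, 0.23 for Vegfa and 0.07 and 0.15 for Tpi1. The brightest gave 0.50, 0.51 and 0.19. Further Hif1a probe sets above the filter on low values gave 0.63 and 1.04, beside 0.55, and Ldha had no other. No member had all 6 tumors below the p53-/- tumors, where the background was 3.94%. After quantile normalization the count was 6, with Slc16a1 added, against 3.33% of all genes. After median scaling it was 4, namely Hif1a, Vegfa, Tpi1 and Slc16a1, without Adm and Ldha, against 4.12% of all genes. Of 29 members 24 were higher on average, where 43.5% of all genes were. With limma 9 of 29 members had an unadjusted p under 0.05 in the higher direction, against 6.84% of all genes, and 1, Higd1a, in the lower direction, against 9.09%.

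**Figure D1:**
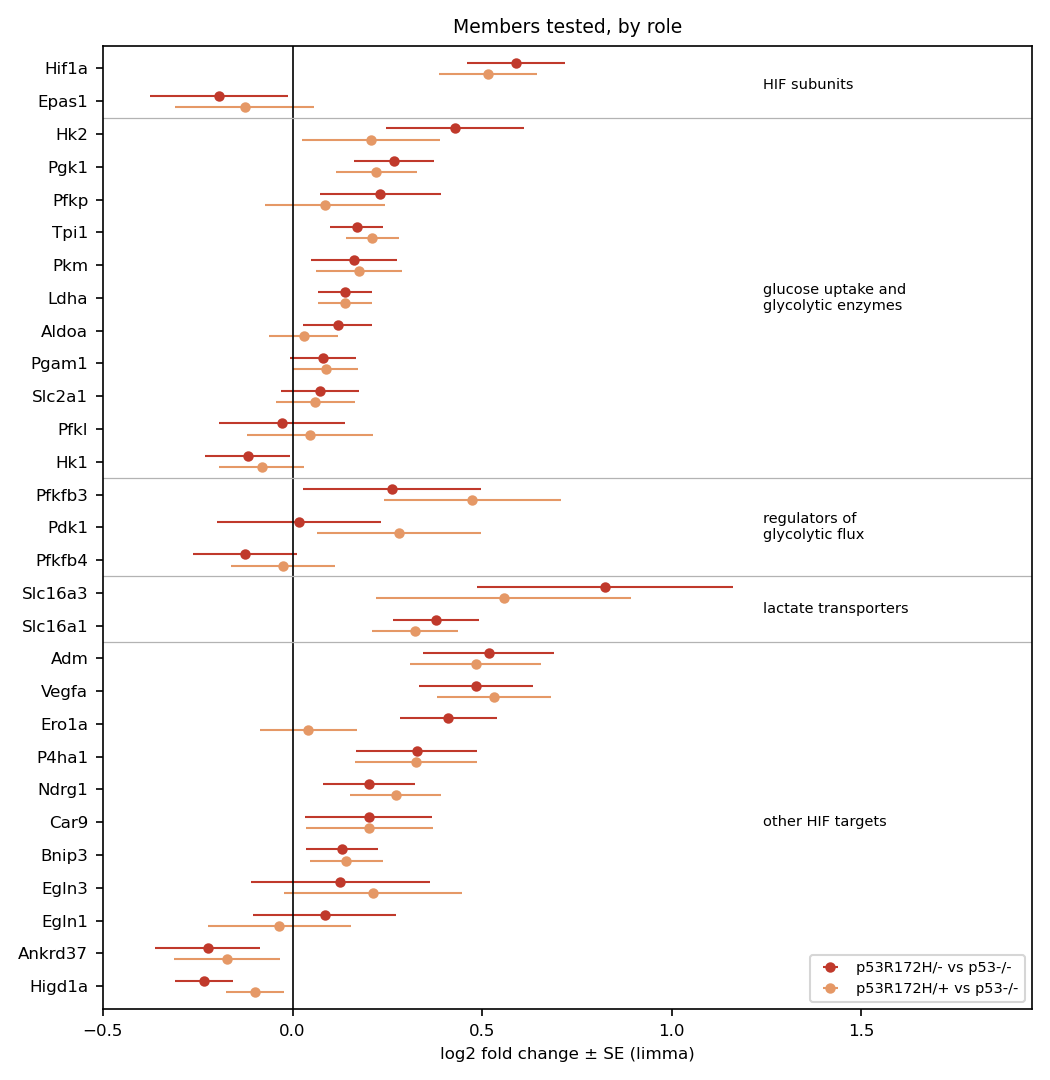
Log2 fold change ± SE (x axis, limma) of the 29 members tested, by role, for p53R172H/- and for p53R172H/+ tumors, each against the same p53-/- tumors. Most points lie right of 0 in both comparisons, with Slc16a3 farthest right and Higd1a and Ankrd37 left of 0.

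Hif1a, which encodes the alpha subunit of HIF-1, had the smallest p of all members in both comparisons with p53-/-. Its brightest probe set gave 4591, 3889 and 3588 signal units in p53R172H/- tumors, 3546, 4512 and 3425 in p53R172H/+ tumors and 2878, 2430 and 2684 in p53-/- tumors. Every p53R172H tumor was thus above every p53-/- tumor. The log2 fold change against p53-/- was 0.59 ± 0.13 (SE, limma adjusted p = 0.214) for p53R172H/- and 0.52 ± 0.13 (limma adjusted p = 0.359) for p53R172H/+, and 0.55 ± 0.11 (limma adjusted p = 0.183) for both groups together. A pair of further probe sets for Hif1a passed the filter on low values. They gave 0.63 and 1.05 for p53R172H/- and 0.63 and 1.03 for p53R172H/+, and on each of them the 6 p53R172H tumors again lay above the 3 p53-/- tumors. Arrays do not show how much HIF-1 protein these tumors held.

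Epas1, which encodes the alpha subunit of HIF-2, did not follow Hif1a. Its signal was 1455, 2323 and 2438 in p53R172H/- tumors, 2027, 2165 and 2161 in p53R172H/+ tumors and 2228, 2076 and 2666 in p53-/- tumors. The groups overlapped, and the single low tumor, p53R172H/- tumor 1, was also the tumor with the highest Hif1a. Epas1 had a log2 fold change of -0.19 ± 0.18 (SE) in p53R172H/- and -0.13 ± 0.18 in p53R172H/+ tumors. Without p53R172H/- tumor 1 the value for p53R172H/- was 0.04.

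**Figure D2:**
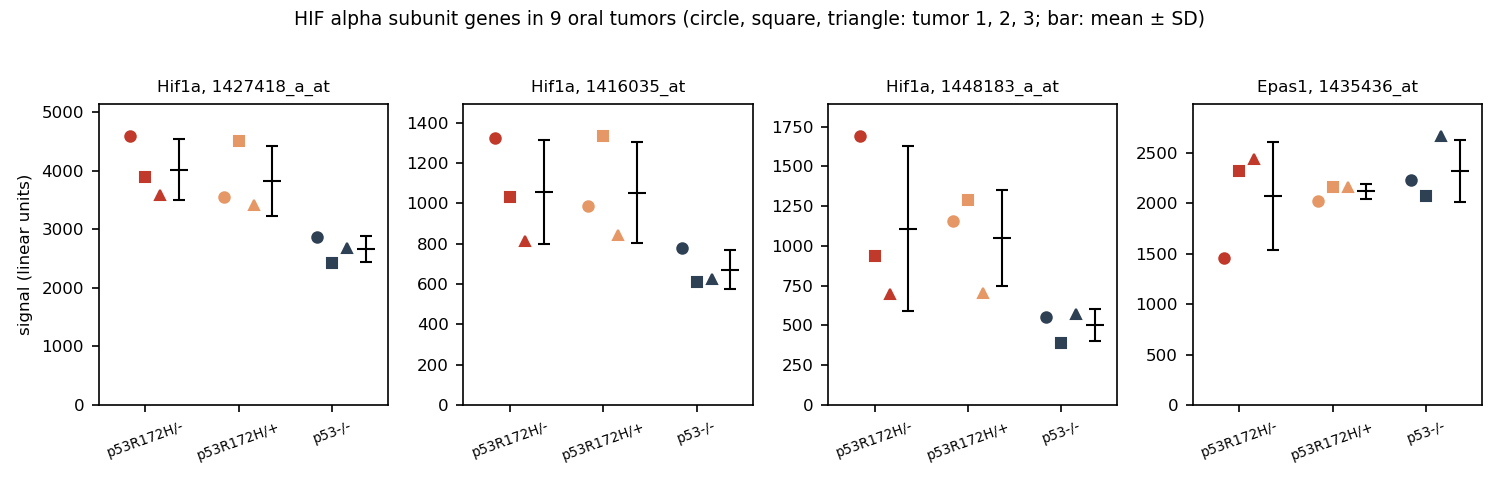
Signal in linear units (y axis, from 0) of Hif1a on 3 probe sets and of Epas1 in each tumor, by genotype, with the mean ± SD of 3 tumors at the side. On each Hif1a probe set the 6 p53R172H tumors lie above the 3 p53-/- tumors, whereas the Epas1 groups overlap and p53R172H/- tumor 1 is lowest at 1455.

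HIF binds DNA at a short core, ACGTG or GCGTG, and the promoters of 6 members are shown because their own signals carry the comparisons below. They are the lactate transporters Slc16a1 and Slc16a3, the lactate dehydrogenase Ldha (the more upstream of its 2 entries), Ero1a and Adm, which were higher on average in p53R172H/- tumors, and Higd1a, which was lower. Each is the stretch of 250 bases before the gene's start in RefSeq (GRCm38.p6), 5′ to 3′ on the gene's strand, with the core in capitals on either strand. The positions are chr3:104638414-104638663 (+) for Slc16a1, chr11:120948817-120949066 (+) for Slc16a3, chr7:46845554-46845803 (+) for Ldha, chr14:45318573-45318822 (-) for Ero1a, chr7:110627407-110627656 (+) for Adm and chr9:121857797-121858046 (-) for Higd1a.
Slc16a1: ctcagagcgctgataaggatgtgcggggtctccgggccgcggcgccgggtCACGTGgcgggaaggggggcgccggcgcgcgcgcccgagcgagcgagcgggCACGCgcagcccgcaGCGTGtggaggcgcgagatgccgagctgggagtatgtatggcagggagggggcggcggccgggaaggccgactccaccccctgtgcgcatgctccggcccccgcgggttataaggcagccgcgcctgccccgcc
Slc16a3: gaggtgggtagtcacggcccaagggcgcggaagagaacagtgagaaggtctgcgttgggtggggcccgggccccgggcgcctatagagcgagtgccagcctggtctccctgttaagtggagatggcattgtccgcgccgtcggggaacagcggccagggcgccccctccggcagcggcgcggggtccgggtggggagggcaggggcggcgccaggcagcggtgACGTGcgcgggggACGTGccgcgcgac
Ldha: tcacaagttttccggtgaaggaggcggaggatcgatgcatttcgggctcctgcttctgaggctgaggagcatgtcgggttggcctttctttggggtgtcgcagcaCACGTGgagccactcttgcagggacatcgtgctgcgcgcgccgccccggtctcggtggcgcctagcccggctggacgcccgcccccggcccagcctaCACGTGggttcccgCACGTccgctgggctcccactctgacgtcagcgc
Ero1a: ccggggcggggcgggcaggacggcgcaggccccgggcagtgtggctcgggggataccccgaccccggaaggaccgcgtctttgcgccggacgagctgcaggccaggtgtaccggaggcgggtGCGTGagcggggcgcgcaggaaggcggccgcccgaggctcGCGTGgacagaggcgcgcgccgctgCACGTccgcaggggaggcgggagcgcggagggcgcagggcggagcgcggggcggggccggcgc
Adm: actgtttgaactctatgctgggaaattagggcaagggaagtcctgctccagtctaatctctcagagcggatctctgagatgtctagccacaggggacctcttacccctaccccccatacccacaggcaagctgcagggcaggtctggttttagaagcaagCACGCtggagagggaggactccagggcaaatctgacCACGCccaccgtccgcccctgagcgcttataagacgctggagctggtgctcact
Higd1a: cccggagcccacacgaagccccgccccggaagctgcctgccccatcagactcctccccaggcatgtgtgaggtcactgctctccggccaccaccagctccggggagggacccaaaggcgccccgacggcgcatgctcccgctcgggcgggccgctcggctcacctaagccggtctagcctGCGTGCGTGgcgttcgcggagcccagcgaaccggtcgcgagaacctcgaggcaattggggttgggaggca
The stretches hold 3 places with the core in Slc16a1, 2 in Slc16a3, 3 in Ldha, 3 in Ero1a, 2 in Adm and 1 in Higd1a, counting overlapping matches as 1 place. Among the 6 shown, the core was present before members that were higher and before the member that was lower. Tpi1, which was higher on average in both p53R172H groups and is not shown, had 0 places with the core. Vegfa, also higher in both, had 0 places in its more upstream entry, chr17:46032378-46032627 (-). It had 2 in its downstream entry, chr17:46025164-46025413 (-). In the counts below Vegfa holds the core through the downstream entry alone. Over windows that also take in 50 bases after the start, 30 members had a RefSeq promoter entry and 28 of them held the core in at least 1 promoter. Of their 40 promoters 33 held it (82.5%), against 14380 of 32851 promoters of all mouse genes (43.8%). Member promoters were also richer in CpG, the dinucleotide inside both cores, with a median of 23 CpG per window against 7 over all promoters. A match to so short a core is a description of the letters and not a binding site.

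The genes of glucose uptake and glycolysis differed by small amounts. Of the 11 tested, 9 were higher on average in p53R172H/- and 10 in p53R172H/+ tumors than in p53-/- tumors. Their median log2 fold change was 0.14 for p53R172H/- and 0.09 for p53R172H/+. Single tumors moved these medians: the first was 0.07 without p53R172H/- tumor 1, and the second was 0.17 without p53R172H/+ tumor 3 and 0.14 without p53-/- tumor 1 or 3. Tpi1, the triose phosphate isomerase, had 8028, 7221 and 6836 signal units in p53R172H/- tumors, 7781, 7476 and 7417 in p53R172H/+ tumors and 6464, 6378 and 6762 in p53-/- tumors. The lowest p53R172H tumor was just above the highest p53-/- tumor. The log2 fold change of Tpi1 was 0.17 ± 0.07 (SE) in p53R172H/- and 0.21 ± 0.07 in p53R172H/+ tumors (limma adjusted p = 0.300 and 0.406), and its other probe sets gave 0.03 and 0.12 for p53R172H/- and 0.11 and 0.18 for p53R172H/+.

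Ldha, the lactate dehydrogenase subunit that favours the making of lactate, averaged 12910 ± 1190 signal units in p53R172H/-, 12890 ± 579 in p53R172H/+ and 11700 ± 143 in p53-/- tumors (SD, n = 3 each). Its log2 fold change was 0.14 ± 0.07 (SE) in each p53R172H group, and the lowest of their 6 tumors was just above the highest p53-/- tumor. Pgk1, the phosphoglycerate kinase that makes the first ATP of the pathway, averaged 8280 ± 653 in p53R172H/-, 8061 ± 1180 in p53R172H/+ and 6863 ± 50.6 in p53-/- tumors (SD, n = 3 each). Its p53-/- tumors lay close together, and p53R172H/+ tumor 3 was the single tumor below them. Pgk1 had a log2 fold change of 0.27 ± 0.11 (SE) in p53R172H/- and 0.22 ± 0.11 in p53R172H/+ tumors. Its other probe sets gave 0.29 and 0.22 for p53R172H/- and, lower than the one tested, 0.13 and 0.11 for p53R172H/+.

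Hk2, the inducible hexokinase that traps glucose inside the cell, varied most among the glycolytic members. It had 1343, 1687 and 1400.2 signal units in p53R172H/- tumors, 1248, 1680.0 and 954 in p53R172H/+ tumors and 1054, 1128 and 1096 in p53-/- tumors. The p53R172H/- tumors all lay above the p53-/- tumors, while p53R172H/+ tumors lay on both sides of them. Hk2 had a log2 fold change of 0.43 ± 0.18 (SE, limma adjusted p = 0.309) in p53R172H/- and 0.21 ± 0.18 in p53R172H/+ tumors, and the second value was 0.00 without p53R172H/+ tumor 2.

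Hk1, the constitutive hexokinase, was lower on average, at -0.12 ± 0.11 (SE) in p53R172H/- and -0.08 ± 0.11 in p53R172H/+ tumors, but a second Hk1 probe set gave 0.08 and 0.12. Pfkl, the liver-type phosphofructokinase, was near 0 at -0.03 and 0.05. The other 5 tested members ranged from 0.07 for Slc2a1, the main glucose transporter of epithelium, to 0.23 for Pfkp, the platelet-type phosphofructokinase, in p53R172H/- tumors. Between them lay Pkm, the pyruvate kinase (0.16 in p53R172H/- and 0.18 in p53R172H/+), Aldoa, an aldolase (0.12 and 0.03), and Pgam1, a phosphoglycerate mutase (0.08 and 0.09). One further Slc2a1 probe set read higher than the one tested, at 0.32 in p53R172H/- and 0.46 in p53R172H/+.

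Gapdh, the dehydrogenase in the middle of the pathway, was measured here on the array's control probe sets and was not part of the fit. The control set at its 3′ end averaged 11980 ± 693 signal units in p53R172H/-, 11920 ± 418 in p53R172H/+ and 10750 ± 233 in p53-/- tumors (SD, n = 3 each). On this set and on the sets at the 5′ end and in the middle, all 6 p53R172H tumors lay above the 3 p53-/- tumors. No probe set was named for Gpi1 or Eno1 alone in the platform annotation used, and both were not analysed here.

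A control ratio for RNA quality was lower on average in both p53R172H groups, with overlap between p53R172H/- and p53-/- tumors. The 3′ to 5′ signal ratio of the beta-actin control was 1.31, 1.499 and 1.564 in p53R172H/- tumors, 1.36, 1.48 and 1.48 in p53R172H/+ tumors and 1.669, 1.687 and 1.502 in p53-/- tumors. With this ratio as a covariate, an alternative added after seeing the data, the median of the 11 genes of glucose uptake and glycolysis was 0.05 for p53R172H/-, 0.03 for p53R172H/+ and 0.03 for both p53R172H groups against p53-/-. The Gapdh control ratio was 0.93 to 1.03 over all 9 tumors. Because the actin ratio went partly with genotype, a fit with it cannot tell RNA quality from genotype.

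Both lactate transporters were higher on average, with a median log2 fold change of 0.60 in p53R172H/- and 0.44 in p53R172H/+ tumors against p53-/-. Without p53R172H/- tumor 1 the p53R172H/- median was 0.39. Slc16a1, the monocarboxylate transporter MCT1, had 1039, 972 and 1072 signal units in p53R172H/- tumors, 918, 970 and 1088 in p53R172H/+ tumors and 727, 740 and 919 in p53-/- tumors. The p53R172H/- tumors were all above the p53-/- tumors, and the p53R172H/+ tumors overlapped them by a single signal unit. Its log2 fold change was 0.38 ± 0.11 (SE, limma adjusted p = 0.243) in p53R172H/- and 0.32 ± 0.11 (limma adjusted p = 0.414) in p53R172H/+ tumors. Slc16a3, the transporter MCT4 that exports lactate from glycolytic cells, had 1107, 418 and 511 signal units in p53R172H/- tumors, 564, 594 and 406 in p53R172H/+ tumors and 430, 363 and 274 in p53-/- tumors. A single tumor, p53R172H/- tumor 1, stood far above the rest, and both p53R172H groups overlapped the p53-/- tumors. The log2 fold change of Slc16a3 was 0.82 ± 0.34 (SE, limma adjusted p = 0.300) in p53R172H/- and 0.56 ± 0.34 in p53R172H/+ tumors. Without p53R172H/- tumor 1 it was 0.40 ± 0.23 in p53R172H/- tumors, below Ero1a, Adm, Hk2, Hif1a and Vegfa in the same fit (0.51, 0.50, 0.49, 0.49 and 0.48).

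Slc16a3 was the member whose call changed with a covariate for muscle. With the mean of the muscle markers as a covariate its log2 fold change in p53R172H/- against p53-/- was 1.19 with a limma adjusted p of 0.027, and it was then the only member among 22 genes called. The tumor with the highest Slc16a3 was the p53R172H/- tumor with the lowest muscle signal. Of 8 measured neutrophil markers 6 were higher on average in p53R172H/- and 7 in p53R172H/+ tumors than in p53-/- tumors, and of 10 macrophage and monocyte markers 8 and 9 were. The mean log2 signal of the neutrophil list was 9.60 to 10.15 in p53R172H/-, 9.80 to 10.10 in p53R172H/+ and 9.35 to 9.65 in p53-/- tumors. That of the macrophage and monocyte list was 8.29 to 9.40 in p53R172H/-, 8.80 to 9.26 in p53R172H/+ and 8.32 to 8.91 in p53-/- tumors. T cell markers ran the other way: 0 of the 4 measured of 8 were higher on average in either p53R172H group, and their mean log2 signal was 7.39 to 7.48 in p53R172H/-, 7.39 to 7.54 in p53R172H/+ and 7.56 to 7.86 in p53-/- tumors. All 6 p53R172H tumors were below all 3 p53-/- tumors on it. The part of these lists in the member differences was not tested.

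The 3 regulators of glycolytic flux showed no shared direction against p53-/- tumors. Pfkfb3, which makes the activator of phosphofructokinase, had 201, 173 and 205 signal units in p53R172H/- tumors, 229, 315 and 152 in p53R172H/+ tumors and 138, 176 and 170 in p53-/- tumors. The groups overlapped, and a single p53R172H/+ tumor held the highest value. Its log2 fold change was 0.26 ± 0.23 (SE) in p53R172H/- and 0.47 ± 0.23 in p53R172H/+ tumors, and another Pfkfb3 probe set gave -0.19 and -0.06. Pdk1, the kinase that keeps pyruvate out of mitochondria, had 732, 622 and 951 signal units in p53R172H/- tumors, 672, 1028 and 1085 in p53R172H/+ tumors and 653, 886 and 722 in p53-/- tumors. These groups overlapped too, and its 3 probe sets above the filter on low values did not agree in sign for p53R172H/-, with 0.02, -0.32 and 0.35. A further Pdk1 probe set, dimmer than the filter, read -0.44. Pfkfb4, a relative of Pfkfb3, was at -0.12 ± 0.14 (SE) in p53R172H/- and -0.02 ± 0.14 in p53R172H/+ tumors. Between p53R172H/- and p53R172H/+ tumors all 3 were lower on average (Pfkfb3 -0.21, Pfkfb4 -0.10 and Pdk1 -0.26), with overlapping groups and 0 calls.

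Among the other HIF targets, 9 of 11 were higher on average in p53R172H/- and 8 of 11 in p53R172H/+ than in p53-/- tumors, with medians of 0.20 in each. The median for p53R172H/+ was 0.09 without p53R172H/+ tumor 1 and 0.35 without p53-/- tumor 3. Vegfa, the main angiogenic growth factor, had 406, 396 and 415 signal units in p53R172H/- tumors, 382, 527 and 368 in p53R172H/+ tumors and 269, 336 and 270.2 in p53-/- tumors. All p53R172H tumors were above all p53-/- tumors, and the p53R172H/- tumors lay within a narrow range. Its log2 fold change was 0.48 ± 0.15 (SE, limma adjusted p = 0.247) in p53R172H/- and 0.53 ± 0.15 (limma adjusted p = 0.359) in p53R172H/+ tumors, and a second probe set gave 0.24 and 0.23. The measured endothelial markers, 9 of 10 listed, had a mean log2 signal of 7.71 to 7.91 in p53R172H/-, 7.8 to 8 in p53R172H/+ and 7.71 to 8.05 in p53-/- tumors.

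Adm, which encodes the vasodilator peptide adrenomedullin, had 350.1, 375 and 304 signal units in p53R172H/- tumors, 354, 340 and 310 in p53R172H/+ tumors and 250, 182 and 300 in p53-/- tumors. The p53R172H tumors all lay above the p53-/- tumors, the closest pair by a few units. Adm had a log2 fold change of 0.52 ± 0.17 (SE, limma adjusted p = 0.258) in p53R172H/- and 0.48 ± 0.17 in p53R172H/+ tumors, and a second probe set gave -0.02 and -0.06. Ero1a, the oxidase that forms disulfide bonds in the endoplasmic reticulum, had 1233, 1585 and 1455 signal units in p53R172H/- tumors, 1217, 1163 and 933 in p53R172H/+ tumors and 1095, 996 and 1111 in p53-/- tumors. Only its p53R172H/- tumors were apart from the other groups, above both of them. Ero1a had a log2 fold change of 0.41 ± 0.13 (SE, limma adjusted p = 0.247) in p53R172H/- and 0.04 ± 0.13 in p53R172H/+ tumors. Its other 2 probe sets gave higher values in both, 0.77 and 0.95 for p53R172H/- and 0.46 and 0.68 for p53R172H/+.

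Higd1a, a mitochondrial protein that aids survival under low oxygen, was the only member whose p53R172H/- tumors all lay below the p53-/- tumors. It had 4494, 4715 and 4996 signal units in p53R172H/- tumors, 4868, 5136 and 5606 in p53R172H/+ tumors and 5594, 5249 and 5862 in p53-/- tumors. The p53R172H/+ tumors lay between and overlapped both. Its log2 fold change was -0.23 ± 0.08 (SE, limma adjusted p = 0.258) in p53R172H/- and -0.10 ± 0.08 in p53R172H/+ tumors, and 2 other probe sets gave -0.21 and -0.17 for p53R172H/-. After median scaling no member had p53R172H/- tumors all below the p53-/- tumors, where 8.52% of all genes tested did, and 13.8% without that scaling.

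Of the remaining targets, P4ha1, a collagen prolyl hydroxylase subunit, was at 0.33 ± 0.16 (SE) in each p53R172H group. Ndrg1, a stress-induced gene of epithelial differentiation, was at 0.20 ± 0.12 in p53R172H/- and 0.27 ± 0.12 in p53R172H/+ tumors. Its 4 other probe sets gave more, 0.37 to 0.56 and 0.42 to 0.68. Car9, a carbonic anhydrase widely used as a hypoxia marker, was dim, with 120 ± 6.35 signal units in p53R172H/-, 121 ± 17.9 in p53R172H/+ and 106 ± 23.2 in p53-/- tumors (SD, n = 3 each), close to the filter minimum of 113. Bnip3, a mitophagy receptor, was at 0.13 in p53R172H/- and 0.14 in p53R172H/+ tumors. The prolyl hydroxylases Egln1 and Egln3 were at 0.08 and 0.13 in p53R172H/- and at -0.03 and 0.21 in p53R172H/+ tumors, and a second Egln3 probe set gave -0.11 and -0.21. Ankrd37, an ankyrin repeat protein induced by hypoxia, was lower on average, at -0.22 ± 0.14 (SE) and -0.17 ± 0.14.

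**Figure D3:**
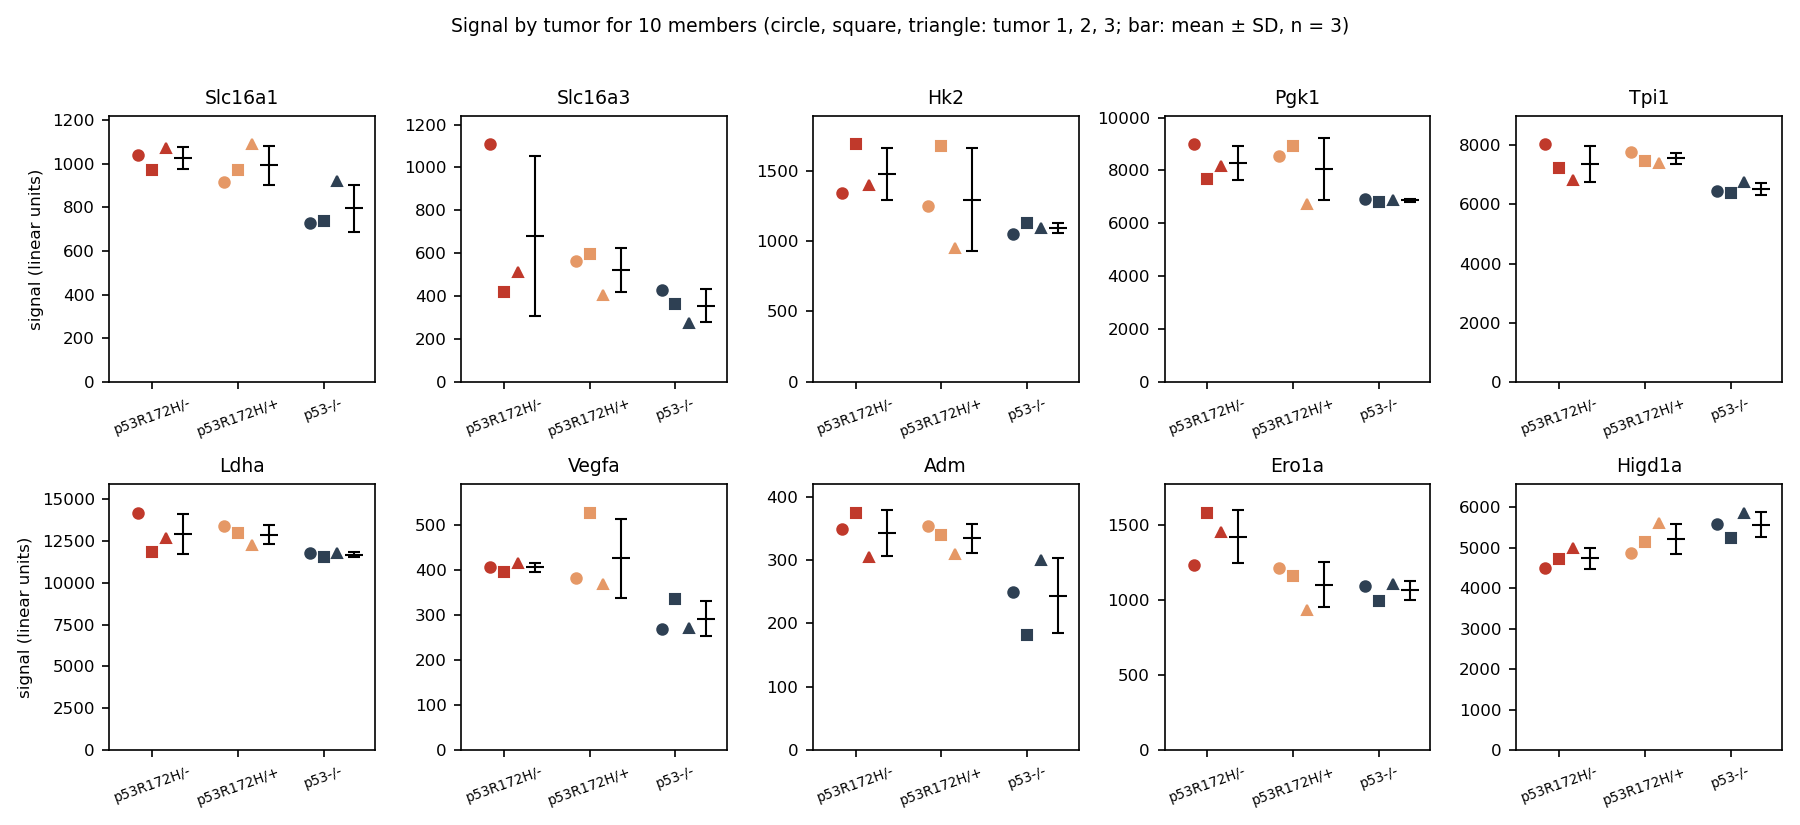
Signal in linear units (y axes, from 0) of 10 members in each tumor, by genotype, with the mean ± SD of 3 tumors at the side. The p53R172H tumors lie above the p53-/- tumors for Tpi1, Ldha, Vegfa and Adm, p53R172H/- tumor 1 stands out for Slc16a3 at 1107, and Higd1a is lowest in p53R172H/- tumors.

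For p53R172H/- against p53-/-, 9 of 29 members (31.0%) had higher tumors with no overlap, against 9.11% of all genes tested, and 1 had lower tumors, against 13.8%. At an unadjusted p under 0.05 the member counts were 9 higher and 1 lower, with 6.44% and 9.16% of all genes. For p53R172H/+ against p53-/-, 6 of 29 (20.7%) had higher tumors with no overlap, against 7.08% of all genes, and 0 had lower tumors, against 8.86%. At an unadjusted limma p under 0.05, 6 members were higher and 0 lower there, with 4.75% and 5.6% of all genes. No member was called after adjustment over all genes in either comparison. With the beta-actin ratio as a covariate 3 members had an unadjusted limma p under 0.05 for p53R172H/- and 2 for p53R172H/+. Without it 10 and 6 had. Over all 12167 genes tested the counts were 689 and 467 with it and 1897 and 1259 without it. In the fit with this covariate 22 of 29 members were higher in each, beside 48.8% and 51.2% of all genes.

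The p53R172H/- and p53R172H/+ tumors differ in whether a wild-type allele accompanies the mutant one at the labelled genotype. Of 29 members 13 were higher on average in p53R172H/- than in p53R172H/+ tumors, where 48% of all genes were, and the median log2 fold change was -0.01 for members and for all genes. Ero1a was the only member whose groups did not overlap (1 of 29, 3.45%, against 5.27% of all genes higher and 6.62% lower), and this held on 1 of its 3 probe sets. Its log2 fold change was 0.37 ± 0.13 (SE, limma adjusted p = 0.949), and it was the only member with an unadjusted p under 0.05, against 2% of all genes higher and 2.96% lower. On its other probe sets the groups overlapped, with 0.30 ± 0.18 and 0.27 ± 0.20 (SE). With the mean of all probe sets of each gene 0 members had an unadjusted limma p under 0.05. The next smallest p-values belonged to Higd1a at -0.14 ± 0.08, Pdk1 at -0.26 ± 0.22, Hk2 at 0.22 ± 0.18 and Aldoa at 0.09 ± 0.09. Aldoa had 6639, 8120.5 and 6943 signal units in p53R172H/- tumors and 6995, 7143 and 6223 in p53R172H/+ tumors, with 6840.2, 6251 and 6838 in p53-/- tumors, and its highest tumor was the one with the most muscle signal. Without both muscle-rich tumors, p53R172H/- 2 and 3, Aldoa was at -0.03 and the median of the 11 genes of glucose uptake and glycolysis was 0.14, where it was 0.00 with them.

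On average, glycolytic members were highest in p53R172H/- tumor 1, closely followed by p53R172H/+ tumor 2, and other HIF targets in p53R172H/- tumor 2. Taking each gene relative to its mean over the 9 tumors, the 11 genes of glucose uptake and glycolysis averaged 0.15, 0.00 and 0.02 (log2) in p53R172H/- tumors 1, 2 and 3, against 0.06, 0.14 and -0.12 in p53R172H/+ and -0.06, -0.14 and -0.05 in p53-/- tumors. The 11 other HIF targets averaged -0.06, 0.20 and 0.06 in p53R172H/- tumors, against 0.10, 0.07 and -0.01 in p53R172H/+ and -0.16, -0.21 and 0.01 in p53-/- tumors. The p53R172H/- tumor 1 was thus highest for the first group of genes and below average for the second. It held the highest value of 6 of the 11 genes of glucose uptake and glycolysis and of 0 of the 11 other targets. The p53R172H/- tumor 2 held the highest value of 3 genes of glucose uptake and glycolysis and of 6 of the 11 other targets, among them Adm, Ero1a, P4ha1, Bnip3, Egln1 and Egln3. How many of all genes tested were highest in either tumor was not counted, so these counts cannot be read as a trait of the members. The p53-/- tumor 2 had the lowest average of all 9 tumors for both groups of genes. For glucose uptake and glycolysis p53R172H/+ tumor 3 was close to it.

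**Figure D4:**
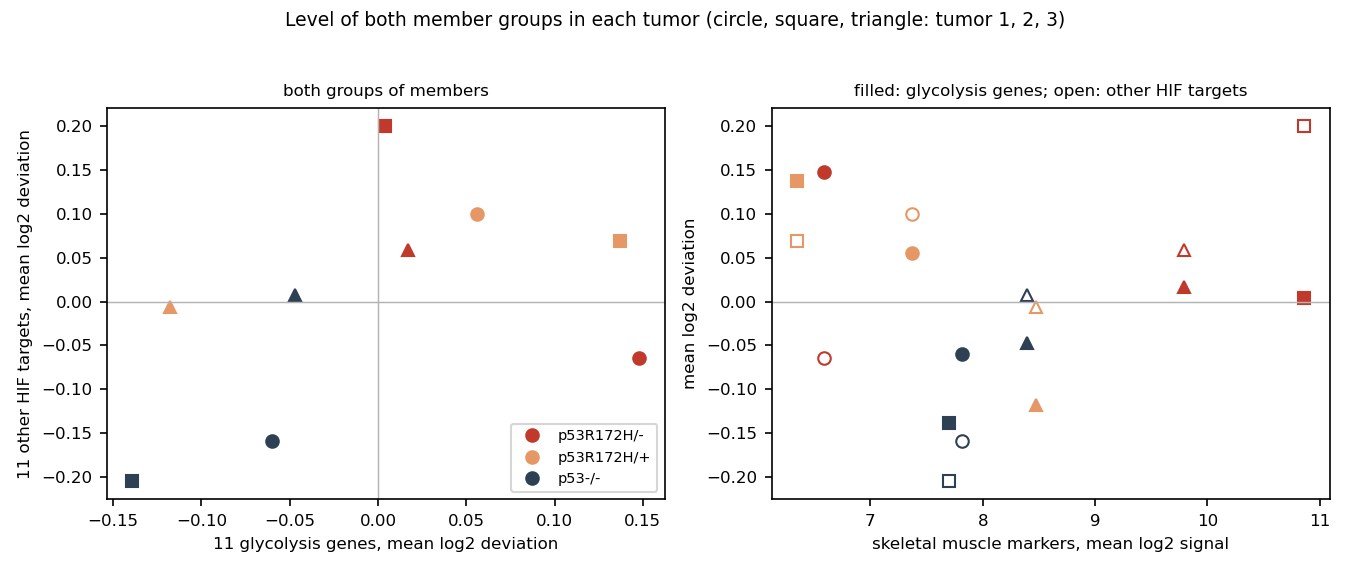
Left, mean log2 deviation of 11 genes of glucose uptake and glycolysis (x axis) against that of 11 other HIF targets (y axis) in each tumor. Right, both means against the mean log2 signal of skeletal muscle markers; p53R172H/- tumor 1 is high on the first mean at 0.15 and low on the second at -0.06, while the muscle-rich p53R172H/- tumor 2 is at 0.00 and 0.20.

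**Figure D5:**
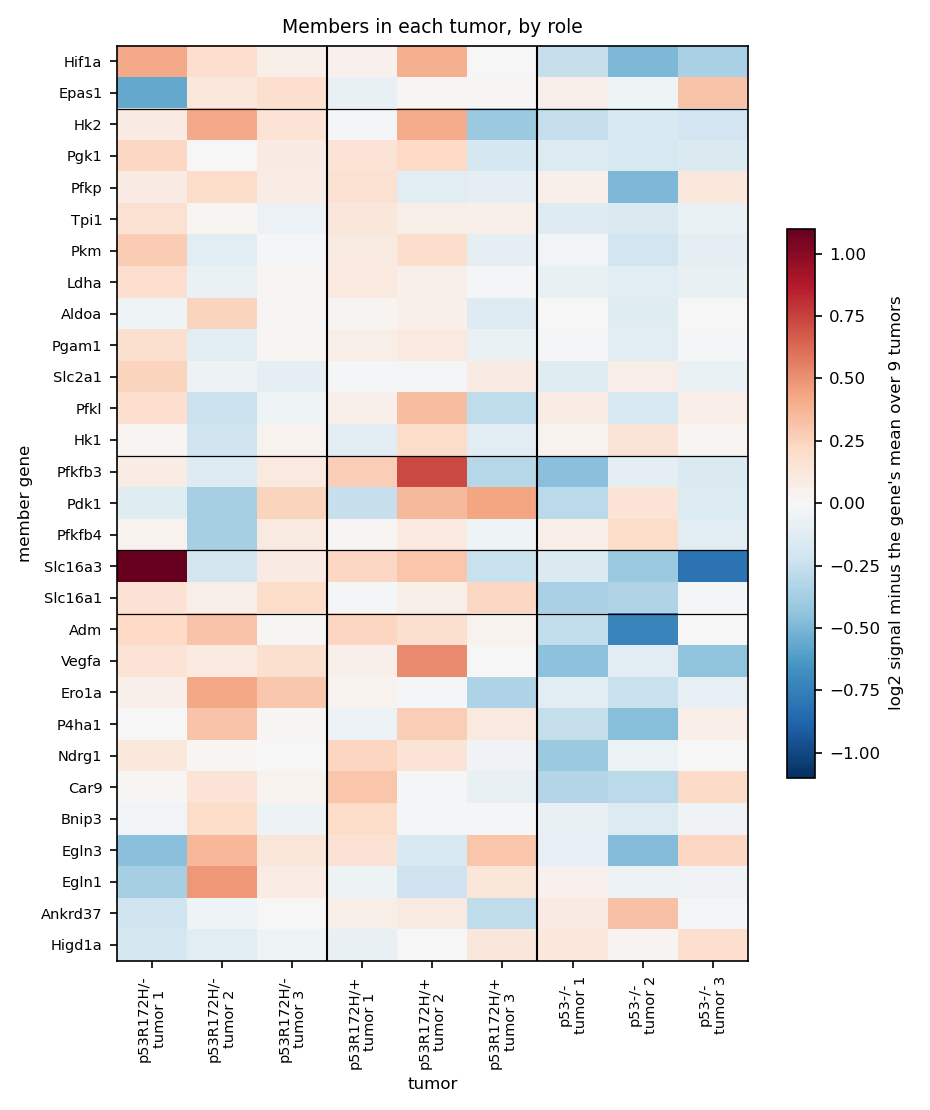
Log2 signal minus the gene's mean over 9 tumors (colour) for the 29 members (rows, by role) in each tumor (columns, by genotype). The p53-/- columns are mostly blue for Hif1a, the lactate transporters, Vegfa and Adm, and p53R172H/- tumor 1 is dark red for Slc16a3.

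Members also differed in how much they varied. The SD of log2 signal over the 9 tumors had a median of 0.13 for the genes of glucose uptake and glycolysis, 0.24 for the other HIF targets and 0.18 for all genes tested. Ldha was the steadiest member, with an SD of 0.10, and 11% of genes tested had a smaller one. Slc16a3 varied most, with an SD of 0.57 and a 4.05-fold range, and 96.8% of genes tested varied less.

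Other genes of the same pathways were taken from further lists, also chosen with earlier results of these data known. Of 7 HIF partners and regulators 6 were tested, and against p53-/- 2 were higher and 4 lower on average in each p53R172H group, with 0 called (limma). Of all genes tested 43.8% were higher in p53R172H/- and 43.9% in p53R172H/+ tumors. Egln2, an oxygen-sensing prolyl hydroxylase, had a log2 fold change of -0.37 ± 0.13 (SE) in p53R172H/- and -0.27 ± 0.13 in p53R172H/+ tumors. Vhl, the ligase subunit that binds hydroxylated HIF, was at -0.31 ± 0.14 and -0.25 ± 0.14. Cited2, which competes with HIF for its coactivator, was at 0.39 ± 0.21 and 0.25 ± 0.21, and Hif1an, the asparaginyl hydroxylase that blocks that coactivator, was at -0.27 ± 0.15 in p53R172H/+ tumors. Between the mutant groups Hif3a was at 0.20 ± 0.17 and Arnt, the beta subunit, at -0.11 ± 0.10.

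Of 24 further HIF targets 20 were tested, and 14 were higher on average in p53R172H/- and 11 in p53R172H/+ than in p53-/- tumors, with medians of 0.07 and 0.10 and 0 called. Of all genes tested 43.8% and 43.9% were higher. Bhlhe40, a transcriptional repressor, was at 0.39 ± 0.11 (SE) in p53R172H/-, where the collagen lysyl hydroxylases Plod2 and Plod1 were at -0.49 ± 0.18 and -0.26 ± 0.12. Of the fibroblast and matrix markers 2 of 12 were higher on average in p53R172H/- than in p53-/- tumors, with a median of -0.69. In p53R172H/+ tumors 8 of 12 were higher, with a median of 0.06, where Plod2 was at -0.12 and Plod1 at 0.13. The list's mean log2 signal was 10.09 to 10.70 in p53R172H/-, 10.88 to 11.12 in p53R172H/+ and 10.42 to 11.26 in p53-/- tumors. The part of these markers in the result was not tested. In p53R172H/+ tumors Hmox1, the heme oxygenase, was at 0.65 ± 0.18, Hilpda, a lipid droplet protein, at 0.58 ± 0.25 and Kdm3a, a histone demethylase, at 0.25 ± 0.10. Between p53R172H/- and p53R172H/+ tumors Hmox1 was at -0.63 ± 0.18, Plod1 at -0.39 ± 0.12 and Tfrc, the transferrin receptor, at 0.57 ± 0.20.

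Of 21 other glycolysis and glycogen genes 16 were tested. Against p53-/-, 10 were higher on average in p53R172H/- and 7 in p53R172H/+ tumors, beside 43.8% and 43.9% of all genes tested. Their medians were 0.15 and -0.05, and 0 were called. Pgm2, a phosphoglucomutase, was at 0.39 ± 0.11 (SE) in p53R172H/- and 0.20 ± 0.11 in p53R172H/+ tumors, Gbe1, the glycogen branching enzyme, at 0.30 ± 0.15 and 0.21 ± 0.15, and Pdha1, a pyruvate dehydrogenase subunit, at 0.30 ± 0.10 in p53R172H/-. Pdk2, another pyruvate dehydrogenase kinase, was at -0.23 ± 0.17 in p53R172H/+ tumors. Between p53R172H/- and p53R172H/+ tumors 12 of 16 were higher, where 48% of all genes tested were. The smallest p-values belonged to Pdha1 at 0.30 ± 0.10, Pgam2 at 1.25 ± 0.57 and Eno3 at 1.76 ± 0.91, the last pair being isoforms of skeletal muscle.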

How the data were processed

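Total RNA of 9 oral tumors was labelled with biotin and hybridised to 1 Affymetrix array each, per the labels' protocols. The authors deposited 1 linear signal intensity per probe set, made with MAS5 per the submitters' processing notes; its scaling settings are unknown here. Array medians were 109.2 to 123.1, and the number of arrays limits the precision. Of 45101 probe sets, 64 were controls, 34945 had 1 gene symbol, 932 had several and 9160 had none.

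Deposited intensities under the 20th percentile (52.6) were set to that value before log2. The brightest probe set on average stood for a gene, and genes dimmer than the median probe set (113) were dropped, which left 12167 of 18193 genes and all 29 members measured. Groups were compared with limma 3.58.1 (R 4.3.3, lmFit, eBayes with a variance trend) over all 9 tumors, two-sided, Benjamini-Hochberg adjusted at 0.05, and the fit was tested on simulated data. Members are described by counts and medians beside all genes tested. Values in every tumor are given for Hif1a, Epas1, the 5 members with the smallest p in each pairwise comparison and the most variable member per role; in other lists up to 3 genes with the smallest p per comparison are named. Members and lists were chosen with earlier results of these data known. Alternatives were normalizations, floors, filters, probe set choice, variance model, covariates, the tumor number as a block and tumors left out. Promoters came from RefSeq (GRCm38.p6); 30 of 32 members matched. Values of the targeted gene are not reported here and did not serve as a check of the labels.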

Additional observations from a re-analysis of the deposited data

How the results depend on the processing

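Hif1a kept its direction and stayed uncalled in each comparison with p53-/- under every alternative run, between 0.49 and 1.05 (log2) for p53R172H/-. Over 23 alternatives 21 of 29 members kept their direction for p53R172H/- against p53-/-, 16 for p53R172H/+ against p53-/- and 5 for p53R172H/- against p53R172H/+; over 22 alternatives 20 did for both groups together. Median scaling moved the medians of all 29 members to 0.23, 0.24 and 0.24 for p53R172H/-, p53R172H/+ and both groups against p53-/-, and the median of all genes to 0.04 in each. With the muscle covariate 22 genes were called for p53R172H/- against p53-/- (Slc16a3 at 1.19), and the median for glucose uptake and glycolysis between the mutant groups was 0.10. Without both muscle-rich tumors the lone p53R172H/- tumor is assumed to vary like the other groups: 3 genes were called against p53-/- (Lce1b, Lce1c and Rnf227), the glycolysis medians were 0.28 against p53-/- and 0.14 against p53R172H/+, and Aldoa was at -0.029 in the last. The actin covariate, added after seeing the data, gave medians for all 29 members of 0.087, 0.092 and 0.091, glycolysis medians of 0.046 for p53R172H/- and 0.025 for both groups, and Epas1 at 0.01 for p53R172H/- and 0.094 for p53R172H/+; 689, 467, 627 and 535 genes had an unadjusted limma p under 0.05. With the Gapdh control ratio these were 1458, 763, 732 and 1106. The cause of these shifts was not tested.

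With each tumor left out in turn, the median of other HIF targets ranged from 0.085 to 0.351 for p53R172H/+ and from 0.122 to 0.316 for both groups, and that of all 29 members for p53R172H/+ from 0.109 to 0.196. The glycolysis median ranged from 0.068 to 0.181 for p53R172H/- and from 0.079 to 0.174 for p53R172H/+, and Slc16a3 from 0.403 to 1.106 for p53R172H/-. Calls ranged from 0 to 1 for both groups, with Dusp6 called without p53R172H/+ tumor 3. Some single members changed sign. Against p53-/-, Epas1 ranged from -0.329 to 0.043 for p53R172H/- (positive without p53R172H/- tumor 1) and Hk2 from -0.001 to 0.407 for p53R172H/+ (lowest without p53R172H/+ tumor 2). Between p53R172H/- and p53R172H/+ tumors, Hif1a ranged from -0.024 to 0.199, Epas1 from -0.203 to 0.169 and Slc16a3 from -0.153 to 0.549, each with the other sign without p53R172H/- tumor 1. Adm ranged from -0.033 to 0.118 there (-0.021 without p53R172H/+ tumor 3) and Pfkfb3 from -0.485 to 0.039.

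Deviations of same-numbered tumors from their group means correlated at -0.50 to 0.24, and those of differently numbered tumors at -0.47 to 0.52. From 3 tumors per group this cannot decide whether the numbers pair tumors, and nothing in the labels says that they do. With the tumor number as a block 0 genes were called in each comparison (limma), with 1822, 1212, 626 and 1885 at an unadjusted p under 0.05, and the medians were those without the block. Every probe set tested on its own also gave 0 calls over 19740 probe sets, an alternative added after seeing the data. The comparison of both groups with p53-/- uses all 9 tumors, so a fit of only the groups compared was not run for it.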

Other observations

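Muscle isoforms of glycolytic enzymes had a pattern of their own, and Pfkm among them was chosen after its values were seen. Eno3, the muscle enolase, had 77.2, 1666 and 575 signal units in p53R172H/- tumors 1, 2 and 3, against 108, 81.5 and 216 in p53R172H/+ and 131, 112 and 187 in p53-/- tumors. Pgam2, the muscle phosphoglycerate mutase, had 108, 761 and 268 in p53R172H/- tumors, against 123.4, 89.6 and 149 in p53R172H/+ and 123.5, 178 and 142 in p53-/- tumors. Pfkm, the muscle phosphofructokinase, had 274, 1145 and 502 in p53R172H/- tumors, against 277, 303 and 432 in p53R172H/+ and 392.3, 378 and 331 in p53-/- tumors. All 3 were highest in p53R172H/- tumor 2 and next in tumor 3, the tumors with the most muscle signal, where the myosin gene Myh4 had 4099 and 1426 signal units, against 24.1 in p53R172H/- tumor 1, 23.1 to 206 in p53R172H/+ and 72.3 to 159 in p53-/- tumors. The members Hk2, Aldoa and Pfkp were also highest in p53R172H/- tumor 2, as were 6 of the 11 other HIF targets. Hk2 was nearly as high in p53R172H/+ tumor 2 (1680.0 against 1687), which had the lowest muscle mean, 6.35. Pfkp had 1147 in p53R172H/+ tumor 1 against 1175 in p53R172H/- tumor 2. Hif1a, Slc16a3, Pgk1, Tpi1, Ldha, Pkm, Pgam1 and Slc2a1 were highest in p53R172H/- tumor 1, which had little muscle signal. The part of muscle in these peaks was not tested.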
